A study of Sus scrofa with 9 samples.

Results

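The miRNAs named miR-17, miR-18, miR-19, miR-20, miR-93 and miR-106 were followed through small RNA libraries of pig (Sus scrofa) gametes and 1-cell embryos. Members were taken by name alone, with any species prefix, arm or sequence variant, and rows of the same name were summed. This gave 15 of the 1313 names in the table, in 16 of its 1420 rows. The series held 3 libraries of oocytes held at metaphase II of meiosis (MII oocytes), 3 of 1-cell embryos with pronuclei (PN embryos) and 3 of mature sperm, all labelled as untreated. Per the study's methods, the oocytes came from slaughterhouse ovaries of postpubertal gilts, were matured in vitro and were stripped of cumulus cells. The PN embryos came from in vitro fertilization of such oocytes, and the sperm was fresh boar semen purified on a density gradient. Oocytes and embryos were pooled in large numbers for RNA, and no source used here says whether the 3 libraries of a group were separate collections. P-values therefore measure the spread between libraries, which may be technical.

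These miRNAs descend from one ancestral gene cluster that was copied during vertebrate evolution. In mammals the copies are the miR-17-92 cluster, the miR-106a-363 cluster on the X chromosome and the miR-106b-25 cluster, which lies in an intron of the replication gene MCM7. A miRNA picks its targets mainly through the seed near its 5′ end. miR-17-5p, miR-20a, miR-20b, miR-93, miR-106a and miR-106b share one seed (the miR-17 group), miR-18a and miR-18b share another, and miR-19a and miR-19b have a seed of their own. The clusters are known for promoting cell proliferation. A well-studied target of the miR-17 group is the cell cycle inhibitor CDKN1A, and the clusters have also been studied in male germ cells.

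In the RefSeq annotation of the pig genome Sscrofa11.1, the build named in the submitters' processing notes, 9 precursors of the members were found. MIR17 (chr11:60734656-60734732), MIR18A, MIR19A, MIR20A, MIR19B-1 and MIR92A-1 followed each other within 782 bp of chromosome 11. No other annotated gene overlapped this span, which lay between the lncRNA LOC106505325 and the protein-coding gene GPC5. On the X chromosome, MIR363-1, MIR92A-2, MIR19B-2, MIR20B-1, MIR18B and MIR106A (chrX:110114388-110114468) lay within 917 bp, between the lncRNA LOC110257831 and CCDC160, with no overlapping gene. MIR93 and MIR106B had no entry. miR-19b and miR-92a can each come from either cluster, so their counts do not tell the loci apart.

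Several of these miRNAs are nearly identical in sequence, and their counts were not independent. The names ssc-miR-17-5p and ssc-miR-106a_R-1_1ss1AC held identical counts in all 9 libraries, so that miR-17-5p from chromosome 11 and miR-106a from the X chromosome could not be told apart. Their values were not whole numbers in 4 of 9 libraries. The sum of miR-17-5p, miR-106a, miR-20a-5p and miR-20b was whole in every library, whereas the sum without miR-20b was not whole in 2. ssc-miR-19b stood in 2 identical rows, and ssc-miR-20a-3p_L-1 had the same counts as a predicted name. The 15 names thus rested on 14 distinct rows of counts.

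Library totals were 289183 to 381674 counts in MII oocytes, 422630 to 771001 in PN embryos and 1640492 to 2455102 in sperm, so that depth and group cannot be told apart. Values are given in counts per 1000000 counts of the library (CPM), a share of the listed small RNA and not an amount per cell. Fewer cells of a type and less RNA per cell cannot be told apart in such pools. Summed levels of the sperm markers miR-34b, miR-34c and miR-449a (9 names) were 150757 to 152999 CPM in sperm, 2036 to 2099 CPM in the oocytes and 2250 to 2455 CPM in the embryos. Of these 9 names, 4 were at 0 in every MII oocyte library. Follicle cell markers (6 names) summed to 851 to 1360 CPM in the oocytes, 1074 to 1172 CPM in the embryos and 703 to 772 CPM in sperm. The sum in sperm was mostly cfa-miR-383, at 686 CPM there, and of the 6 names 1 was called higher and 5 lower in sperm than in MII oocytes. miRNAs give no marker of the oocyte alone.

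The members held 1.36% to 1.45% of the counts in MII oocytes, 1.20% to 1.26% in PN embryos and 1.77% to 1.98% in sperm. These shares count the row of miR-17-5p and miR-106a under both names. The 3 ranges did not overlap. Several single members differed more between sperm and the other groups than the total did, though miR-20a-5p did not. By single name, miR-20a-5p was the highest member in MII oocytes and PN embryos, and miR-93 was the highest in sperm. Summed over both its names, the shared row of miR-17-5p and miR-106a stood above miR-20a-5p in MII oocytes and PN embryos, at 6068 and 6021 CPM.

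**Figure D1:**
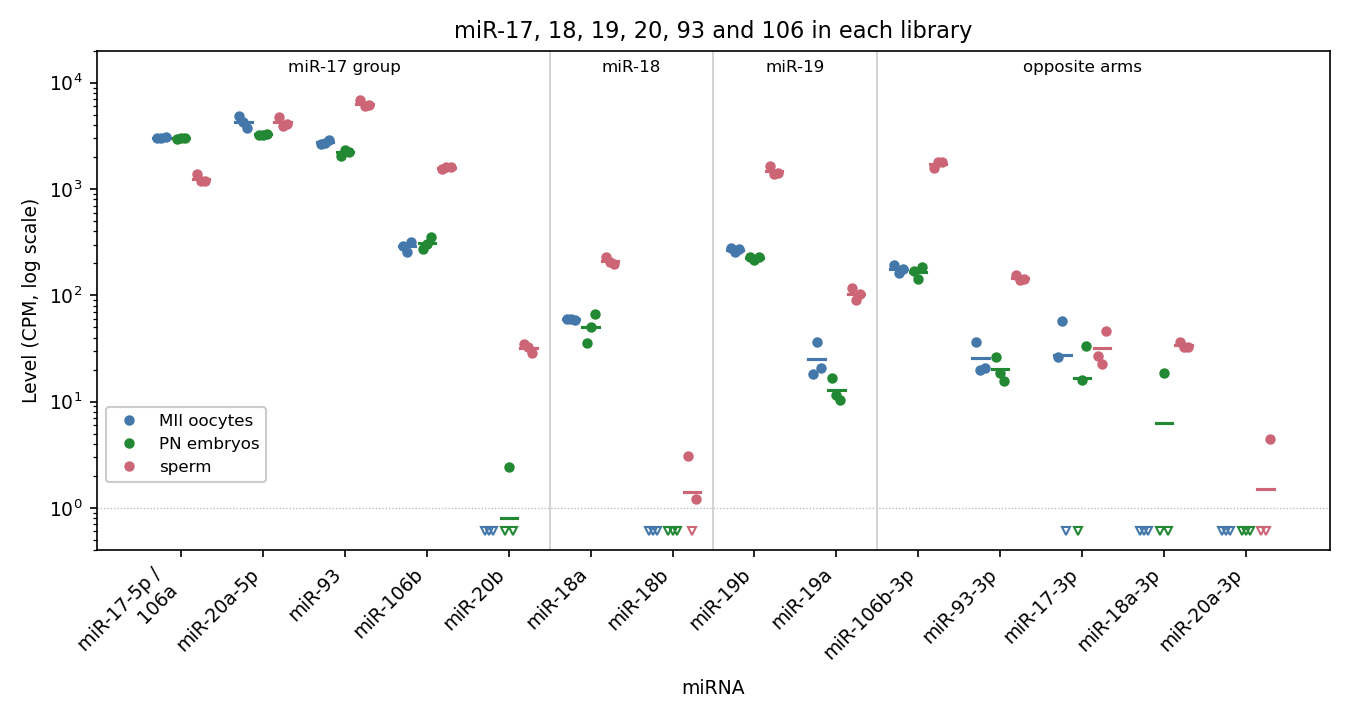
Level of each miRNA in CPM (log scale above the dotted line at 1) in each library, with a bar at the mean of each group of 3 libraries. Open triangles at the bottom mark libraries listed at 0. In sperm, the shared row of miR-17-5p and miR-106a sits below the oocyte and embryo libraries, while miR-93, miR-106b, miR-18a, miR-19a, miR-19b and the opposite arms of miR-106b and miR-93 sit above them.

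Within the miR-17 group, miR-17-5p, the founding member, was at 3037, 3004 and 3060 CPM in the 3 MII oocyte libraries. It was at 2962, 3018 and 3051 CPM in the embryos and at 1390, 1187 and 1191 CPM in sperm. The oocyte and embryo values overlapped, and every sperm library was lower. Counted as the sum of both names, the shared row stood at 6068 ± 56.2 CPM in the oocytes, 6021 ± 89.7 CPM in the embryos and, in sperm, 2512 ± 232 CPM (SD, n = 3 each).

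miR-20a-5p, made from the same primary transcript as miR-17, was at 4873, 4308 and 3755 CPM in the oocytes. The PN embryo libraries were at 3239, 3248 and 3320 CPM and the sperm libraries at 4792, 3933 and 4054 CPM. Every PN embryo library was below every other library, and the oocyte and sperm values overlapped. The spread in MII oocytes (SD 559 CPM) was wider than in PN embryos (SD 44.6 CPM).

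miR-93, from the miR-106b-25 cluster, was at 2646, 2717 and 2905 CPM in the oocytes, 2061, 2324 and 2239 CPM in the embryos and 6869, 6104 and 6126 CPM in sperm. The 3 groups did not overlap, with embryos lowest and sperm highest. Its cluster neighbour miR-106b was at 293, 254 and 318 CPM in the oocytes, 272, 303 and 353 CPM in the embryos and 1528, 1607 and 1616 CPM in sperm. Here the oocyte and embryo libraries overlapped and the sperm libraries stood above them. miR-20b, from the X-linked cluster, was listed at 0 in every MII oocyte library, at 2.40 CPM in 1 PN embryo library and at 34.5, 32.9 and 28.9 CPM in sperm. Its values were not whole in 2 of 9 libraries, so reads shared with its relatives enter them.

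The summed miR-17 group was at 13424 ± 411 CPM in the oocytes, 11808 ± 274 CPM in the embryos and, for sperm, 14754 ± 1085 CPM (SD, n = 3). With the shared row counted once, these means were 10390, 8798 and 13498 CPM. The single row was not whole in 4 of 9 libraries, while the 4 names that share reads summed to whole counts in all 9. This is the pattern of reads divided among names, and counting the row once then leaves part of the reads out. The make-up of the group differed more than its sum. miR-17-5p and miR-106a together held 45.2 ± 1.495% of it in MII oocytes, 51.0 ± 0.470% in PN embryos and 17.01 ± 0.321% in sperm (SD, n = 3). miR-93 held 20.6 ± 1.56%, 18.7 ± 0.794% and 43.2 ± 0.261%, and miR-106b held 2.15 ± 0.261%, 2.62 ± 0.291% and 10.8 ± 1.07% (SD, n = 3, same order). miR-20a-5p held 32.1 ± 3.23%, 27.7 ± 0.459% and 28.8 ± 1.01% (SD, n = 3). With the shared row counted once, miR-17-5p held 29.2%, 34.2% and 9.30%, miR-20a-5p 41.4%, 37.2% and 31.5%, and miR-93 26.6%, 25.1% and 47.2%. These shares leave out the counts under the name miR-106a.

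**Figure D2:**
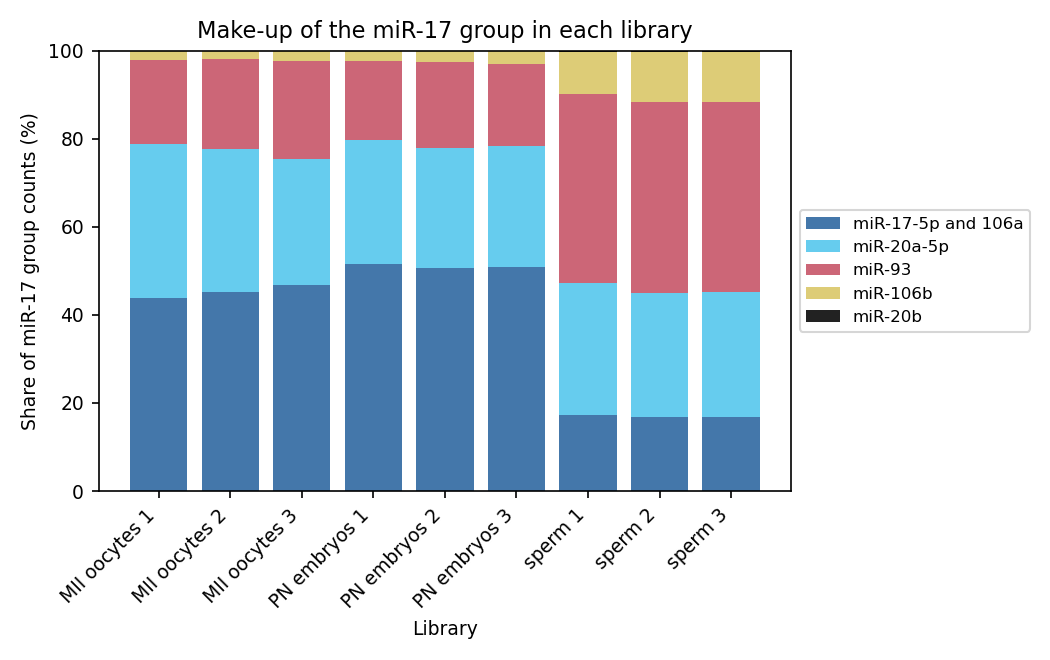
Share of the miR-17 group's counts (%) held by each member in each of the 9 libraries, with the identical counts of miR-17-5p and miR-106a stacked as one block. In sperm miR-93 holds 42.9% to 43.4% against 17.9% to 22.2% in oocytes and embryos, and miR-20b is too low to be seen.

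miR-18a, the second miRNA of the chromosome 11 cluster, was at 60.3, 60.2 and 58.8 CPM in the oocytes, 35.5, 50.3 and 66.1 CPM in the embryos and 229, 204 and 198 CPM in sperm. The embryo values spread around those of the oocytes, and every sperm library was higher. These CPM rested on only 17 to 23 reads per oocyte library and 15 to 51 per embryo library. miR-18b, its X-linked relative, was listed only in sperm, with 5 and 3 reads in 2 libraries.

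miR-19b was at 278, 254 and 273 CPM in the oocytes, 227, 216 and 231 CPM in the embryos and 1663, 1373 and 1412 CPM in sperm. Every embryo library lay below every oocyte library, and every sperm library above both. These levels sum both identical rows. miR-19a, with the same seed, was at 18.3, 36.8 and 20.7 CPM in the oocytes, 16.6, 11.5 and 10.4 CPM in the embryos and 118, 90.6 and 102 CPM in sperm. Its order of groups was that of miR-19b, but it rested on 6 to 11 reads in each oocyte and embryo library.

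Each precursor can give a miRNA from either of its arms. miR-106b-3p, the opposite arm of miR-106b, was at 194, 164 and 176 CPM in the oocytes, 168, 141 and 184 CPM in the embryos and 1561, 1783 and 1806 CPM in sperm. The sperm values lay above all others, while oocytes and embryos overlapped. miR-93-3p was at 36.7, 20.1 and 20.7 CPM, then 26.0, 18.7 and 15.6 CPM, then 155, 141 and 142 CPM in the same order of groups. It rested on 6 to 14 reads in each oocyte and embryo library. miR-17-3p was listed in 2 MII oocyte, 2 PN embryo and 3 sperm libraries, at no more than 56.8 CPM, and the groups overlapped. miR-18a-3p was listed in 1 PN embryo library, at 18.7 CPM, and in all sperm libraries at 36.6, 32.9 and 33.0 CPM. miR-20a-3p was listed in 1 sperm library with 11 reads.

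Some neighbours in the order of levels did not differ beyond their spread. In this order miR-17-5p is placed by its own name, without the identical counts of miR-106a. With both names summed, at 6068, 6021 and 2512 CPM, it would stand above miR-20a-5p in oocytes and embryos. In sperm it would stand above miR-106b-3p. In MII oocytes miR-20a-5p, miR-17-5p and miR-93 followed each other with no overlap between libraries, whereas miR-106b and miR-19b overlapped at 289 ± 32.4 and 268 ± 12.6 CPM (SD, n = 3). In PN embryos these 5 miRNAs kept this order, with no overlap between neighbours. In sperm the order was miR-93, miR-20a-5p, miR-106b-3p, miR-106b, miR-19b and miR-17-5p. There miR-106b-3p overlapped miR-106b (1717 ± 135 and 1584 ± 48.6 CPM), and miR-106b overlapped miR-19b (1483 ± 157 CPM, SD, n = 3). miR-19b in turn overlapped miR-17-5p (1256 ± 116 CPM, SD, n = 3).

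The first comparison, PN embryos against MII oocytes, asked what differed after fertilization. Of the members 13 of 15 passed the filter on low counts, and miR-18b and miR-20a-3p did not. None of the 13 was called, with a call set at an adjusted p (q) under 0.05 and a log2 fold change of at least 1 in edgeR's quasi-likelihood test. Over all 587 names tested, 12.9% were called in either direction. Of the 13 members 4 had an unadjusted edgeR p under 0.05, beside 209 of the 587 names. A q under 0.05 was reached by 2 members, and DESeq2's Wald test called 0. Both members under that q were lower in PN embryos, and 8.52% of all names were lower at that q with no minimum fold change.

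These 2 were miR-20a-5p, with a log2 fold change of -0.47 ± 0.09 (SE, edgeR q = 0.00310), and miR-93, with -0.39 ± 0.07 (SE, edgeR q = 0.00248). The adjusted p stayed under 0.05 for each in 17 of 20 alternative fits, which were edgeR fits except for 1 by DESeq2. It did not without MII oocyte library 1 (q = 0.299 for miR-20a-5p and 0.233 for miR-93), without PN embryo library 2 (0.0565 and 0.0642) or with identical counts entered once (0.224 and 0.379). The median log2 fold change over all names was 0.08 in the fit reported. It was 0.27 without MII oocyte library 1, 0.28 with identical counts once and 0 without PN embryo library 2, where the fold changes were -0.47 and -0.43. Relative to that median, miR-20a-5p stood at -0.55 and ranged from -0.60 to -0.47 over the 20 alternatives, and miR-93 stood at -0.47 and ranged from -0.55 to -0.39.

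The remaining members did not pass a q of 0.05 between embryos and oocytes. The shared row of miR-17-5p and miR-106a stood at -0.08 ± 0.06 (SE, edgeR q = 0.420), miR-106b at 0.05 ± 0.13 (SE, edgeR q = 0.931) and miR-18a at -0.26 ± 0.24 (SE, edgeR q = 0.551). miR-19b stood at -0.33 ± 0.11 (SE, edgeR q = 0.0614) and miR-19a at -1.08 ± 0.39 (SE, edgeR q = 0.0716). The libraries of PN embryos all lay below those of MII oocytes in 4 members, miR-19a, miR-19b, miR-20a-5p and miR-93, and in none did they all lie above. Over all names tested, 12.6% had every embryo library below every oocyte library. The median of the 13 members was -0.26 on the log2 scale, against 0.08 over all names. Red blood cell markers summed to 788 to 822 CPM in the embryos and 166 to 254 CPM in the oocytes. Muscle markers summed to 96.8 to 246 CPM in the oocytes and were at 0 in PN embryos, and the liver marker miR-122 was at 642 to 794 CPM and 25.9 to 42.8 CPM. Their part in these differences was not tested.

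Sperm against MII oocytes compared the 2 gametes. Of the 13 members tested, 9 were called higher in sperm and 2 lower, the 2 being the shared row of miR-17-5p and miR-106a. Over all names 42.2% were called higher and 40.7% lower, and the members' median log2 fold change was 2.11 against 0 over all names. The median over all names ran from -0.63 after thinning to 1.10 with the replicate block. The members' median was 1.26 and 2.19 in those 2 fits. Over the 10 members listed in all 6 libraries, 7 were called higher and 2 lower, with a median of 1.99. The shares and median over all names were not restricted in this way, so they are no matching background for these 10. Markers of other cell types also differed. Epithelial markers summed to 6391 to 6905 CPM in sperm and 1359 to 1690 CPM in the oocytes. Of the 6 epithelial names tested, 4 were called higher in sperm and ssc-miR-141 was called lower. White blood cell markers summed to 99.2 to 109 CPM and 0 to 60.2 CPM, and miR-122 to 2026 to 2067 CPM and 642 to 794 CPM. Muscle markers were lower in sperm, at 12.6 to 17.1 CPM against 96.8 to 246 CPM. Red blood cell markers overlapped, at 160 to 260 CPM and 166 to 254 CPM. The part of these markers in the members' differences was not tested.

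**Figure D3:**
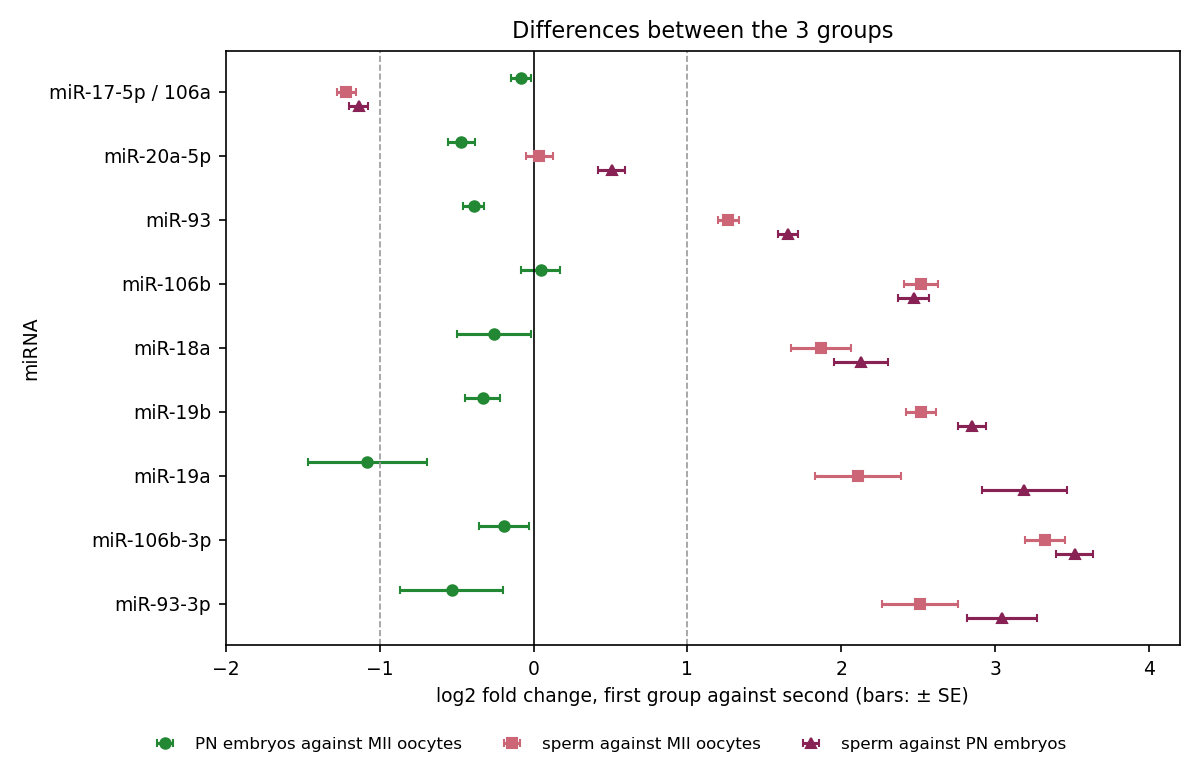
Log2 fold change of 9 miRNAs in the 3 comparisons (edgeR, 3 libraries per group), with bars of ± 1 SE and dashed lines at a log2 fold change of -1 and 1. In both sperm comparisons the shared row of miR-17-5p and miR-106a lies below -1, miR-20a-5p lies between the lines and the other 7 lie above 1.

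In the miR-17 group the changes between gametes ran in opposite directions. The shared row of miR-17-5p and miR-106a was lower in sperm by a log2 fold change of -1.22 ± 0.06 (SE, edgeR q = 2.39e-08). miR-93 was higher by 1.27 ± 0.07 (SE, edgeR q = 2.60e-08) and miR-106b by 2.52 ± 0.11 (SE, edgeR q = 6.54e-09). miR-20a-5p was at 0.04 ± 0.09 (SE, edgeR q = 0.699), with a sign that turned under other scalings. Without MII oocyte library 1, the shared row of miR-17-5p and miR-106a was at -0.99 (edgeR q = 6.31e-05) and missed the fold change needed for a call. miR-93 was at 0.64 (edgeR q = 3.11e-06) after thinning every library to the smallest total, which also missed that fold change. The median over all names was -0.63 there. Relative to the median over all names, miR-93 ranged from 0.23 to 1.47 over the 20 alternatives, with the lowest value under the replicate block. The row of miR-17-5p ranged from -2.25 to -1.01.

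Both miR-19 members and miR-18a were higher in sperm than in MII oocytes. miR-19b differed by a log2 fold change of 2.52 ± 0.10 (SE, edgeR q = 2.08e-09), miR-19a by 2.11 ± 0.28 (SE, edgeR q = 4.73e-05) and miR-18a by 1.87 ± 0.20 (SE, edgeR q = 7.55e-06). Of the opposite arms, miR-106b-3p was higher by 3.32 ± 0.13 (SE, edgeR q = 2.25e-09) and miR-93-3p by 2.51 ± 0.25 (SE, edgeR q = 4.33e-06). miR-17-3p was not called (0.27 ± 0.87, SE; edgeR q = 0.786). miR-18a-3p and miR-20b, both at 0 in MII oocytes, were at least 2.18-fold and 2.05-fold higher in sperm, taking 5 reads per library as the most that a listed 0 could hide. They passed the filter only through sperm and so had to differ.

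Sperm against PN embryos shared its sperm libraries with the comparison above. Again 9 members were called higher in sperm and 2 lower, beside 38.8% and 47.4% of all names. The members' median was 2.45 on the log2 scale, against -0.52 over all names. Over the 10 members listed in all 6 libraries, 7 were called higher and 2 lower, with a median of 2.30. Here too the values over all names were not restricted in this way. Red blood cell markers summed to 160 to 260 CPM in sperm against 788 to 822 CPM in the embryos. Epithelial markers summed to 6391 to 6905 CPM against 1372 to 1556 CPM, and miR-122 to 2026 to 2067 CPM against 25.9 to 42.8 CPM. Of the 6 epithelial names tested, 4 were called higher in sperm and ssc-miR-141 was called lower. The part of these markers was not tested. The shared row of miR-17-5p and miR-106a was lower by -1.13 ± 0.06 (SE, edgeR q = 3.30e-08). Its q stayed under 0.05 in all 20 alternatives for miR-17-5p, but the fold change fell short of a call in 10 of them, down to -0.92, and relative to the median of all names it ran from -0.92 to 0.11. miR-20a-5p was at 0.51 ± 0.09 (SE, edgeR q = 2.70e-04), under the fold change for a call.

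The members called higher in sperm were the same 9 names in both sperm comparisons. Against PN embryos, miR-93 differed by 1.65 ± 0.07 (SE, edgeR q = 2.40e-09), miR-106b by 2.47 ± 0.10 (SE, edgeR q = 2.90e-09) and miR-18a by 2.13 ± 0.18 (SE, edgeR q = 9.41e-07) on the log2 scale. miR-19b differed by 2.85 ± 0.09 (SE, edgeR q = 4.11e-10) and miR-19a by 3.19 ± 0.28 (SE, edgeR q = 1.39e-06). The opposite arms miR-106b-3p and miR-93-3p were higher by 3.52 ± 0.12 (SE, edgeR q = 6.76e-10) and 3.04 ± 0.23 (SE, edgeR q = 3.91e-07). miR-18a-3p (edgeR q = 0.0300) and miR-20b were called as well. With at most 1 embryo library listing them they passed the filter through sperm, which favoured a call. The members called higher were 8 in place of 9 with DESeq2's test, with the replicate block and without sperm library 1, 2 or 3. After thinning they were 7.

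miRNAs of one cluster differed in their fold changes. This was seen in the values first and then described through ratios within each library, which no scaling between libraries can alter. The ratio of miR-19b to miR-17-5p was 0.0845 to 0.0915 in MII oocytes, 0.0715 to 0.0767 in PN embryos and 1.16 to 1.20 in sperm. That of miR-18a to miR-17-5p was 0.01921 to 0.02002, 0.0120 to 0.0217 and 0.165 to 0.172 in the same order, and that of miR-20a-5p to miR-17-5p was 1.23 to 1.60, 1.08 to 1.09 and 3.31 to 3.45. In each of these ratios the sperm libraries lay above all others. The denominator holds reads that miR-106a may share, and miR-19b may come in part from the X-linked cluster.

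In the miR-106b-25 cluster, the ratio of miR-106b to miR-93 was 0.0935 to 0.111 in MII oocytes, 0.131 to 0.158 in PN embryos and 0.222 to 0.264 in sperm. The ratio of the 2 arms, miR-106b-3p to miR-106b, was 0.554 to 0.661 in MII oocytes, 0.464 to 0.617 in PN embryos and 1.02 to 1.12 in sperm. For miR-93-3p to miR-93 it was 0.00714 to 0.0139, 0.00695 to 0.0126 and 0.0226 to 0.0232. Both arm ratios were thus higher in every sperm library than in any oocyte or embryo library. That of miR-93-3p rested on 6 to 14 reads of this arm in each oocyte and embryo library. In all 7 ratios tested, the exact two-sided permutation p for sperm against either other group was 0.1, the smallest that 3 libraries against 3 allow (0.117 after Benjamini-Hochberg adjustment over 21 tests). PN embryos against MII oocytes reached the same permutation p of 0.1 for miR-20a-5p, miR-19a and miR-19b to miR-17-5p and for miR-106b to miR-93. The ratios were chosen after the values were seen, so these p-values add no independent support.

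**Figure D4:**
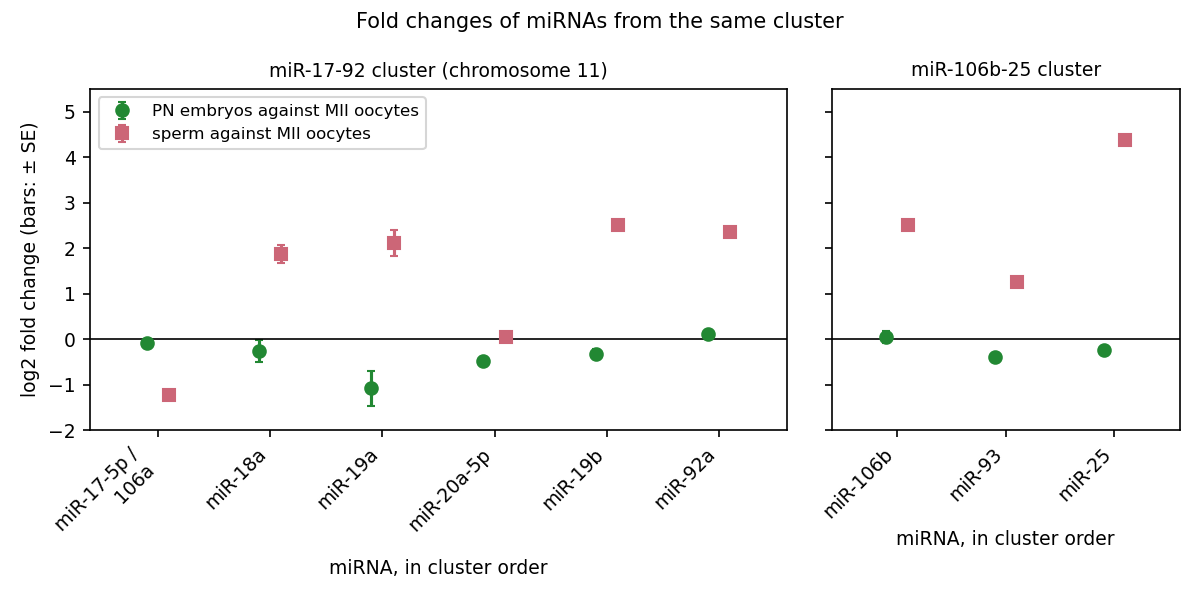
Log2 fold change (± SE) against MII oocytes of miRNAs in the order of their precursors, for PN embryos and sperm (edgeR, 3 libraries per group). Along the chromosome 11 cluster the sperm values run from -1.22 for miR-17-5p and miR-106a to 2.52 for miR-19b, while the embryo values lie between -1.08 and 0.11. miR-19b and miR-92a can also come from the X-linked cluster.

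The partners that share these clusters without being members, miR-92a, miR-25 and miR-363, were listed under 7 names, of which 6 were tested. Of the 6, 5 were called higher in sperm in each sperm comparison, and 0 were called lower. Over all names, 42.2% were called higher against MII oocytes and 38.8% against PN embryos. The 5 were ssc-miR-92a, mmu-miR-92a-3p_R+1, mmu-miR-92a-3p_R+2, cfa-miR-25 and ssc-miR-363_R-2, so several are variants of miR-92a. The other, ocu-miR-92a-5p_1ss12AG, stood at -2.43 and -2.50 on the log2 scale without a call. Between PN embryos and MII oocytes 0 were called, beside 12.9% of all names. The leading name ssc-miR-92a, encoded in both the chromosome 11 and the X-linked cluster, was at 6478 ± 84.9, 7325 ± 123 and 32031 ± 800 CPM in the oocytes, PN embryos and sperm (SD, n = 3). cfa-miR-25, the partner of miR-93 and miR-106b, was at 1421 ± 35.1, 1263 ± 29.4 and 28554 ± 625 CPM (SD, n = 3). It exceeded MII oocytes by a log2 fold change of 4.39 ± 0.05 in sperm (SE, edgeR q = 2.14e-13), against 1.27 for miR-93 of the same cluster. ssc-miR-363_R-2, from the X-linked cluster, was at 408 ± 11.05 CPM in sperm (SD, n = 3) and at means of 6.11 and 12.8 CPM in the oocytes and PN embryos. It passed the filter through sperm, so a call higher there was favoured beforehand.

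The miR-302, miR-372, miR-373 and miR-290 to miR-295 miRNAs, known from pluripotent cells, mostly hold the core of the miR-17 seed at a shifted position. Of these 13 miRNAs 2 were listed. The sources used here do not say which names the table could list, so a name that was not listed is not read as absent. hsa-miR-302b-3p had a mean of 20.3 CPM in the 3 PN embryo libraries, cja-miR-302d-3p was listed in 1 of them, and both were listed at 0 in the MII oocytes and sperm.

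Among 251 other names with a mean of at least 100 CPM, the pattern most like that of each seed group was sought as the smallest root mean square difference of centred log2 levels (1 CPM added) over the 9 libraries. For the miR-17 group these were ssc-miR-27b-3p (0.116), mmu-miR-146a-5p_R+1 (0.122) and ssc-miR-339-5p_R-2 (0.130). For miR-18 they were ssc-miR-151-3p_R-1 (0.201), ssc-miR-29a-3p_L-1R-1 (0.231) and ssc-miR-140-3p_R-1 (0.266). For miR-19 they were ssc-miR-22-3p (0.121), ssc-miR-30d_R-2 (0.148) and ssc-miR-30e-3p_1ss22CT (0.157). The 9 libraries are 3 groups, so the measure follows mainly the 3 group levels.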

How the data were processed

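Small RNA was sequenced from 3 libraries each of MII oocytes, PN embryos and sperm. Per the labels, the authors made libraries from total RNA by adapter ligation, reverse transcription, PCR and gel purification. Each deposited value was an estimated count per named small RNA, raw per the file headers, and 19.8% of those above 0 had a fractional part. The aligner, miRNA caller and count filter are not given in the sources used here, nor is the meaning of the name suffixes. Of 4043 values above 0 in rows that shared no counts, 237 equalled 5 and 28 were whole and lower, and 0 values in the table equalled 1. A listed 0 was therefore taken as up to 5 reads. Groups came from sample titles, and columns were matched through the library names in the sample descriptions. No mature miRNA sequences were analysed here.

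Members and lists were chosen with earlier results of these data known. Ratios were chosen after the values were seen. All members were named, with the leading name of each cluster partner and the closest 3 names per seed group. CPM divide a count by the library total of the table. The level that 3 counts make was 7.86 to 10.4 CPM in MII oocytes, 3.89 to 7.10 in PN embryos and 1.22 to 1.83 in sperm, for counting error only, since PCR copies are not independent molecules. Counts were summed by name, rounded and tested with edgeR 4.0.16 in R 4.3.3 (quasi-likelihood F-test, all 9 libraries in 1 fit, TMM, filterByExpr with a minimum count of 10, Benjamini-Hochberg adjustment over all names). SE was the log2 fold change divided by the root of F. The fit was tested on simulated data. Values halfway between whole numbers were at first rounded up, which kept 588 names. Rounding to even replaced this after results had been seen, because it kept 587 names, the number in an earlier analysis of the table. Rounding up is therefore kept as an alternative chosen after seeing the data. Other alternatives were DESeq2 1.42.0 and its size factors, library totals, no filter, fits of 2 groups, a replicate block, summed or merged rows, thinning, and leaving out each library.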

Additional observations from a re-analysis of the deposited data

How the results depend on the processing

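Of 30 fold changes of members listed in all 6 libraries of a comparison, 18 held the same sign and call in all alternatives run. Of 590 values, 554 kept both, 22 were no longer called, 1 became called and 13 changed sign. The causes were not tested. Between PN embryos and MII oocytes, 1 member was called with DESeq2 size factors (miR-19a) and 2 passed a q under 0.05 with no minimum fold change. In that comparison miR-17-5p turned to 0.127 with identical counts counted once and ran from -0.101 to 0.0517 (likewise miR-106a) with one library left out. miR-106b turned to -0.0745 with size factors and -2.32e-04 with the replicate block, and ran from -0.0742 to 0.198 with one library left out. miR-106b-3p turned to 0.0257 with identical counts once and ran from -0.307 to 0.0215. miR-20a-5p in sperm turned to -0.203 with size factors, -0.0192 with library totals and -0.602 after thinning against MII oocytes, and to -0.10 after thinning against PN embryos. Rounding halfway values up gave 76, 489 and 507 called names in the 3 comparisons, against 76, 487 and 506, and the same 0, 11 and 11 members. With identical counts counted once it mattered more. miR-20a-5p and miR-93 in PN embryos had edgeR q = 0.00254 and 0.00209 when rounded up, against 0.224 and 0.379 when rounded to even, with medians over all names of 0.06 and 0.28. The members called lower in sperm than in PN embryos were 0 in place of 2 with DESeq2's test, without the filter, with names summed, with identical counts once and rounding up, and without MII oocyte library 2 or 3, PN embryo library 1 or 3, or sperm library 1 or 2. Against MII oocytes this happened without MII oocyte library 1. Same-numbered libraries did not deviate together (mean correlations of -0.04, -0.11 and 0.02, and a library correlated best with its own number in 0, 0 and 1 of 3 cases), and with the replicate block 0, 11 and 10 members were called. Summed levels moved by more than 1 SD as follows. With TMM library sizes, the PN embryo means of the miR-17 and miR-19 groups were 11273 and 226.8 CPM. With identical counts once, the miR-17 group was at 10390, 8798 and 13498 CPM in oocytes, embryos and sperm. After thinning, miR-18 was at 58.8 CPM in MII oocytes, and miR-19 at 298.5 and 215.6 CPM in MII oocytes and PN embryos. Depth limited miR-18a, miR-18b, miR-19a, miR-20b and the opposite arms other than miR-106b-3p, which had few or no reads in oocytes and embryos.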
